A study of Mus musculus with 5 samples.

Results

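The 9 genes described here encode proteins that organise synapses: the neurexins Nrxn2 and Nrxn3, the neuroligins Nlgn1, Nlgn2 and Nlgn3, and the leucine-rich repeat transmembrane proteins Lrrtm1, Lrrtm2, Lrrtm3 and Lrrtm4 (LRRTMs). They were chosen by gene symbol, and every probe set that the array's annotation assigned to one of these symbols was taken, which gave 26 of the 45037 probe sets tested. The tissue was the dorsal lateral geniculate nucleus (dLGN), which passes retinal signals on to visual cortex, of mice kept on a C57BL/6 background and taken at postnatal day 0 (P0). Mice homozygous for a knockout of Sema6A (Sema6A-/-), a transmembrane semaphorin of axon guidance, were set against mice heterozygous for it. The controls therefore also carried a mutant copy of the gene, and no array of mice with 2 intact copies was analysed here. There were 2 arrays of the knockout and 3 of the heterozygous control, each from a pool of nuclei of pups of 1 genotype from different litters. The labels give neither the sex of the pups nor the part of Sema6A that was disrupted.

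Neurexins sit mainly in the presynaptic membrane, and each neurexin gene makes long and short proteins from separate promoters and many more forms by alternative splicing. Neuroligins and LRRTMs are postsynaptic membrane proteins that bind neurexins across the synaptic cleft. Nlgn1 is found mainly at excitatory synapses and Nlgn2 at inhibitory ones, while Nlgn3 occurs at both. The LRRTMs act at excitatory synapses, and Lrrtm1 is known in the dLGN of mice for its part in the formation of synapses between retinal axons and relay neurons. Lrrtm4 binds heparan sulfate chains carried by glypicans and by neurexins.

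The values are log2 expression values of the RMA method, where a difference of 1 is a 2-fold difference. The check of the labels held: the brightest Sema6a probe set read 7.81 and 7.85 in the knockout pools, against 10.47, 10.65 and 10.39 in the control pools. Across the 45037 probe sets, the count with an adjusted p below 0.05 in limma was 33 (0.0733%; 0.0644% higher and 0.00888% lower in the knockout). An unadjusted p below 0.05 was found for 5021 (11.1%), and knockout and control arrays were fully separate for 12311 (27.3%). Precision is set by the small number of arrays, and an exact two-sided permutation test of 2 pools against 3 cannot give a p below 0.1. The limma p-values measure the spread between pools. A fit without 1 of the knockout arrays has 1 of them left, so its p-values hold no spread between knockout pools. Knockout replicate 1 stood apart from the other arrays in 2 ways. Its markers of GABAergic and prethalamic cells had a median 2.63 above the control mean, against 0.03 in knockout replicate 2. The gap between the Gapdh control probe sets at the 3′ and 5′ ends was 2.34 there, against 0.96 in knockout replicate 2 and 0.77 to 1.33 in the controls.

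In the knockout pools the LRRTM genes differed among themselves. Lrrtm4 read several-fold higher than in controls and Lrrtm3 higher, Lrrtm1 read lower, and Lrrtm2 read about the same. The neurexins read slightly lower at the probe sets with clear signal, and the neuroligin groups overlapped at every probe set. With limma's adjustment over all probe sets, 0 of the 26 member probe sets passed 0.05, and the smallest adjusted p was 0.0834. At an unadjusted p under 0.05 there were 8 of 26 (30.8%), 4 higher and 4 lower in the knockout, against 5.16% of all probe sets higher and 5.99% lower. Of the 8, 7 belonged to LRRTM genes and 1 to Nrxn3. Knockout and control arrays did not overlap for 12 of 26 (46.2%), 4 above and 8 below the controls, where the shares over all probe sets were 12.9% above and 14.5% below. Probe sets of 1 gene share their transcript, so the 26 are not separate observations. The median log2 fold change was -0.03 over the members and -0.01 over all probe sets. In bulk tissue fewer cells of a type and less RNA per cell cannot be told apart, which holds for every value given here.

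**Figure D1:**
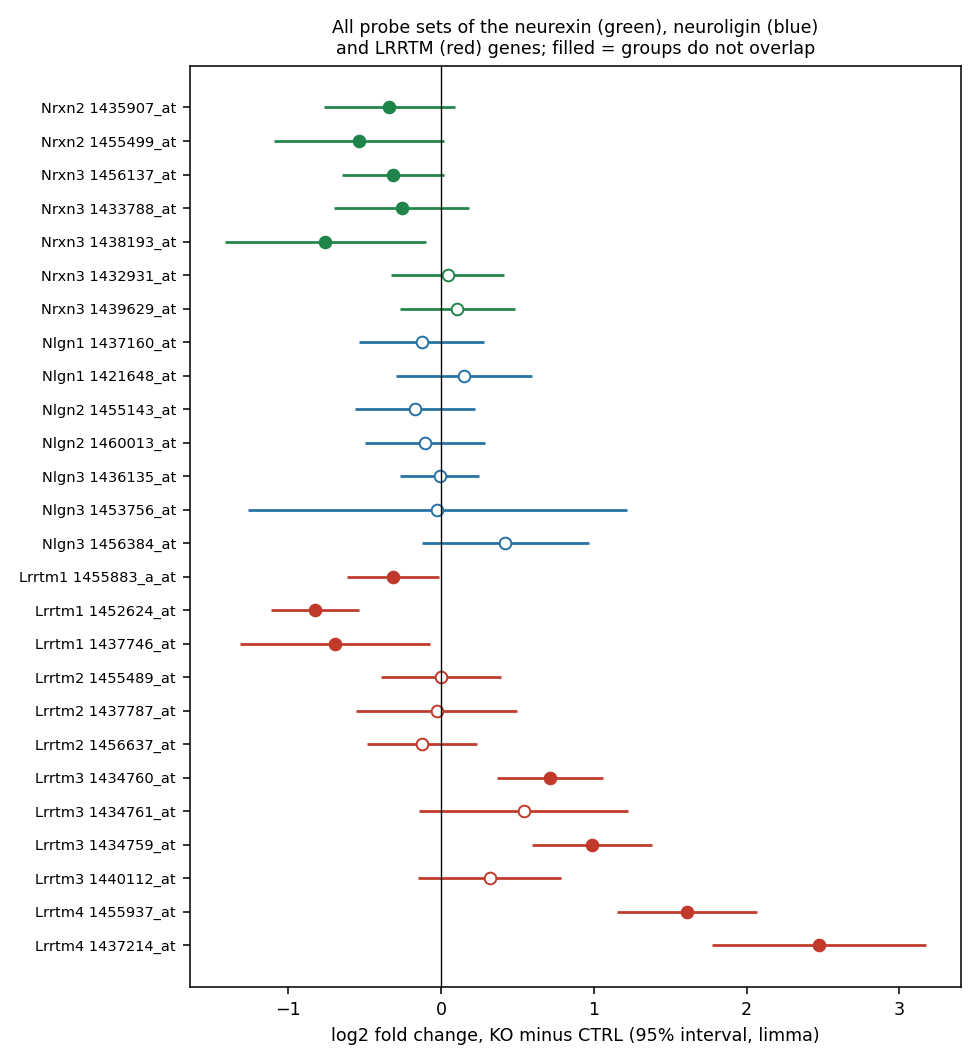
Log2 fold changes (knockout minus control, x axis) of the 26 probe sets of the 9 genes (rows, by probe set name), with 95% intervals from limma. Neurexins are green, neuroligins blue and LRRTMs red, and filled points mark the 12 probe sets whose knockout and control arrays did not overlap. The Lrrtm4 points lie at 1.61 and 2.47, those of Lrrtm1 between -0.83 and -0.31, and all neuroligin points are open.

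Lrrtm4 had the largest difference of the 9 genes. Its brightest probe set, 1455937_at, read 9.93 and 10.45 in the knockout pools, against 8.51, 8.69 and 8.53 in the control pools. Both knockout values lay more than 1 log2 unit above the highest control, and the control pools lay close together. This gave a log2 fold change of 1.61 ± 0.18 (standard error), or 3.05-fold, at a limma adjusted p of 0.0834. At 1437214_at, the second Lrrtm4 probe set, the arrays read 8.21 and 8.13 in the knockout, against 5.15, 6.03 and 5.90 in the control. Here the control values lay below the median of all probe sets, 6.41, and the knockout values above it. This gave a log2 fold change of 2.47 ± 0.28 (standard error), or 5.56-fold, at the same limma adjusted p of 0.0834. RMA compresses differences at such low levels, so this fold may be understated. The call of Lrrtm4 differed between settings. With the mean of its probe sets as the value of the gene, the log2 fold change was 2.04 (limma adjusted p = 0.0193 over 18193 genes, of which 0.544% passed). Both probe sets also passed in limma when dim probe sets were left out (adjusted p = 0.0444, with 0.493% of probe sets called). They passed too when limma's prior followed intensity (adjusted p = 0.0473 and 0.0465, with 0.222% called). The filter on dim probe sets kept those with either group mean at or above the median of all probe sets. At 1437214_at only the knockout mean reached it (8.17, against 5.69 in the control), so its call there is not separate support. Without knockout replicate 1 the log2 fold changes were 1.87 and 2.43, and without knockout replicate 2 they were 1.35 and 2.51. The sign was positive with any 1 of the 5 arrays left out. With any 1 control array left out, the limma unadjusted p was at most 0.00175.

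In the GRCm38.p6 annotation Lrrtm4 lies on chromosome 6 from 80018858 to 80810162, and Lrrtm1 lies 2.76 Mb before it on the same chromosome, from 77229210 to 77259915. Promoter windows from RefSeq (GRCm38.p6) are shown for the 3 LRRTM genes whose knockout and control arrays did not overlap at their brightest probe set. Each window runs from 250 bases before to 50 bases after an annotated transcript start, 5′ to 3′ on the strand of the gene. The windows are chr6:80018627-80018926 and chr6:80019393-80019692 on the plus strand for the 2 starts of Lrrtm4, which lie 766 bases apart, chr10:64090206-64090505 on the minus strand for Lrrtm3 and chr6:77242227-77242526 on the plus strand for Lrrtm1. The Lrrtm1 window lies inside the span of the gene given above, and no window at the 5′ end of that span was read. Capitals mark matches to any of 6 short motifs, searched on both strands and allowed to overlap. They were the TATA box with the letters TATAAA, the CCAAT box, the GC box with the letters GGGCGG, the E-box with the letters CANNTG, the core of LEF sites with the letters TCAAAG and the cyclic AMP response element with the letters TGACGTCA.
Lrrtm4 first start: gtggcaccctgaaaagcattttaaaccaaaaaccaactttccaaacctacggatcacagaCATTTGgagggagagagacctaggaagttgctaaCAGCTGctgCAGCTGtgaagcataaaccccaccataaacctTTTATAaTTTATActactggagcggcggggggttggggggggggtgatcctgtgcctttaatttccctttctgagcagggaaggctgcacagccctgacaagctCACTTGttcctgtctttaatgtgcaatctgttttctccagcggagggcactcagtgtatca
Lrrtm4 second start: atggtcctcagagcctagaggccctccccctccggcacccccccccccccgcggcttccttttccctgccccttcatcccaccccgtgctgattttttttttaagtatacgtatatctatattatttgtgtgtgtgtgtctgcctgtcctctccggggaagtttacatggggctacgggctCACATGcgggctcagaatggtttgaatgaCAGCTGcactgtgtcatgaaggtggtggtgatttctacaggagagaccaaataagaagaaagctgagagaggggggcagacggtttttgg
Lrrtm3: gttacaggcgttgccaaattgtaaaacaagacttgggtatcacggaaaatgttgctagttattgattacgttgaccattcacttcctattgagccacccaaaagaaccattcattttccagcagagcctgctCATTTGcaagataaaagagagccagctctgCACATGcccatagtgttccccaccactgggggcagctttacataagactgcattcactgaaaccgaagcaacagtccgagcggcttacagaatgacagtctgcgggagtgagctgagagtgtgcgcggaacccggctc
Lrrtm1: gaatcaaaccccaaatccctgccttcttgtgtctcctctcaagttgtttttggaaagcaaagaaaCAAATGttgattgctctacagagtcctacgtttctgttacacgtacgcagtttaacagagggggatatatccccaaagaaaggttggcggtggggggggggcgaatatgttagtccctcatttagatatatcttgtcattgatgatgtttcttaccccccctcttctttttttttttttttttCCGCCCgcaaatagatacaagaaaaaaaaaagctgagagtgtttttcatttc

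The first Lrrtm4 window held 2 TATA box matches, found in 13.6% of 32851 windows of this length, and 4 E-box matches. The second Lrrtm4 window and the Lrrtm3 window each held 2 E-box matches, and the Lrrtm1 window held 1. An E-box match was present in 72.3% of all windows, so its presence in all 4 is common. The Lrrtm1 window also held 1 GC box match, found in 35.7% of windows. None of the 4 windows held a CCAAT box (37.4% of windows), a LEF core (16.0%) or a cyclic AMP response element (1.79%). The share of G and C was 48.7% and 53.3% in the Lrrtm4 windows, 48.7% in the Lrrtm3 window and 40.7% in the Lrrtm1 window, against a median of 52.7%. A match is a description of the letters, and the arrays do not show from which start a transcript came.

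Lrrtm3, the other LRRTM gene with higher knockout values, had a smaller difference. Its brightest probe set, 1434760_at, read 9.40 and 9.12 in the knockout pools, against 8.54, 8.66 and 8.44 in the control pools. The groups did not overlap, with a log2 fold change of 0.71 ± 0.14 (standard error), or 1.64-fold (limma adjusted p = 0.191). Probe set 1434759_at read 7.59 and 7.15 in the knockout, against 6.37, 6.40 and 6.37 in the control. The control values were nearly equal there, and the log2 fold change was 0.99 (limma adjusted p = 0.135). At 1434761_at the knockout read 7.48 and 7.67, but control replicate 2, at 7.56, lay between these values, while the other controls read 6.78 and 6.77. Without that control array the log2 fold change of this probe set was 0.80, against 0.54 with all arrays. The dim probe set 1440112_at, with 3.80 and 4.24 in the knockout and 3.55 to 3.92 in the control, gave 0.32, and 0.54 without knockout replicate 1. These first 3 Lrrtm3 probe sets were annotated to the same source sequence, so they repeat a single measurement of the transcript more than they add to it. The gene lies on chromosome 10 from 63928497 to 64090255.

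Lrrtm1, the LRRTM gene known from retinal synapses in this nucleus, read lower in the knockout at all of its 3 probe sets. The brightest, 1455883_a_at, read 11.45 and 11.30 in the knockout pools, against 11.71, 11.58 and 11.78 in the control pools. The groups were separate by a small gap, and the log2 fold change was -0.31 ± 0.120 (standard error; limma adjusted p = 0.431). The unadjusted p was not below 0.05 without knockout replicate 2 (-0.24), without control replicate 1 (-0.30) or without control replicate 3 (-0.27). Probe set 1452624_at read 9.81 and 9.88 in the knockout, against 10.56, 10.71 and 10.74 in the control. This was the clearest separation of the gene, with a log2 fold change of -0.83 ± 0.115 (standard error), a size of 1.77-fold (limma adjusted p = 0.120). Its unadjusted limma p was 0.000526, and between 0.0015 and 0.00353 with any 1 control array left out. Probe set 1437746_at read 9.32 and 8.55 in the knockout, against 9.74, 9.46 and 9.70 in the control. Here knockout replicate 2 was the low array, and the log2 fold change of -0.70 (limma adjusted p = 0.403) was -0.31 without it. The unadjusted p was above 0.05 then, and also without control replicate 1 (-0.64) or control replicate 3 (-0.66).

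Lrrtm2, a close relative of Lrrtm1 that also binds neurexins, read 10.11 and 9.70 in the knockout pools and 9.93, 9.81 and 9.97 in the control pools at its brightest probe set, 1455489_at. The knockout pools lay on either side of the controls, and the log2 fold change was 0.00 with a 95% interval of -0.39 to 0.39. Its other probe sets gave -0.03 (interval -0.56 to 0.50) and -0.12 (-0.49 to 0.24). Differences of up to about these bounds therefore remain possible for Lrrtm2. Lrrtm2 lies on chromosome 18 from 35209003 to 35215024, 12.03 Mb from Sema6a (47245254 to 47371200).

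**Figure D2:**
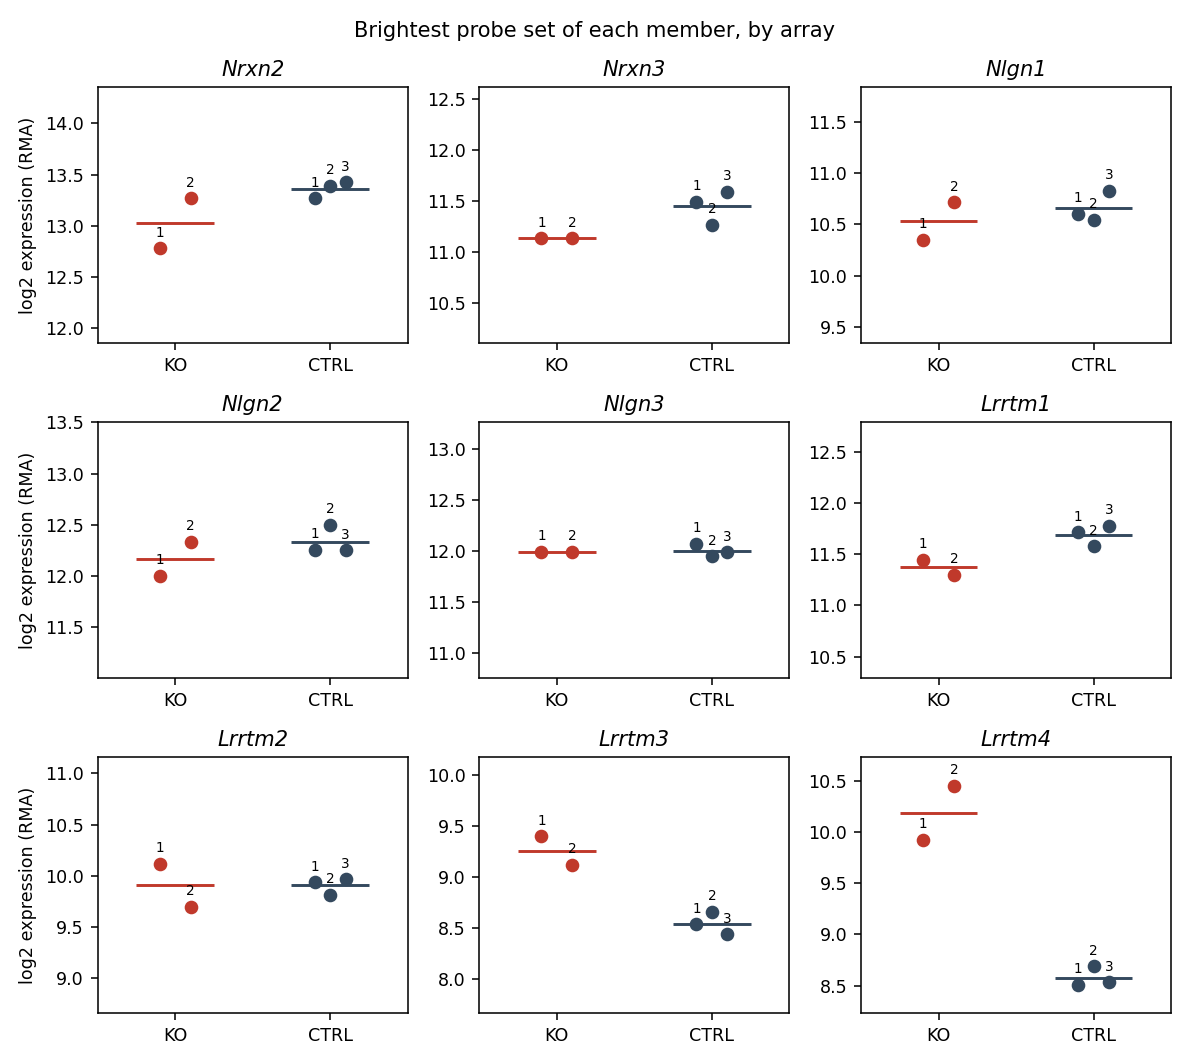
Log2 expression (RMA, y axis) of the brightest probe set of each of the 9 genes in the knockout (KO, red, left) and heterozygous control (CTRL, dark, right) arrays, numbered by replicate, with group means as lines. Every panel spans the same number of log2 units. The groups are far apart for Lrrtm4 and Lrrtm3, lie close without overlap for Nrxn2, Nrxn3 and Lrrtm1, and overlap for Lrrtm2 and the neuroligins.

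To ask whether the LRRTM genes differed unequally, their brightest probe sets were subtracted from each other within each array. For Lrrtm4 minus Lrrtm1 the values were -1.52 and -0.85 in the knockout pools, against -3.20, -2.89 and -3.24 in the control pools. The shift was 1.92 on the log2 scale. For Lrrtm3 minus Lrrtm1 they were -2.05 and -2.18 in the knockout, against -3.18, -2.92 and -3.34 in the control, a shift of 1.03. For Lrrtm4 minus Lrrtm3 they were 0.53 and 1.33 in the knockout, against -0.03, 0.03 and 0.09 in the control, a shift of 0.90. The shift of Lrrtm4 against Lrrtm2 was 1.61, that of Lrrtm3 against Lrrtm2 0.71 and that of Lrrtm2 against Lrrtm1 0.32. In all 6 pairs the knockout pools lay above every control pool. The earlier-numbered gene was always subtracted from the later-numbered one, an order that follows the fold changes of the genes. The common direction therefore restates the values given above, and the share of such separations among pairs of other genes was not computed. Each pair gave an exact two-sided permutation p of 0.1, also after Benjamini-Hochberg adjustment over the 6, which is the smallest the design allows. The zero of these differences has no meaning, since the probes differ in brightness, and the shifts describe unequal change only. The pairs share probe sets and are not independent.

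**Figure D3:**
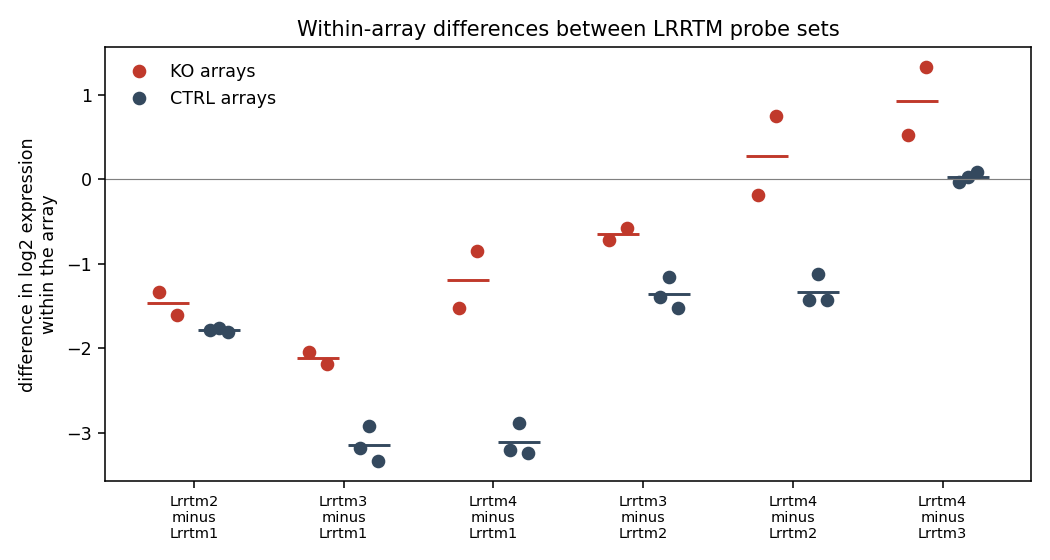
Differences in log2 expression between the brightest probe sets of 2 LRRTM genes within an array (y axis) for the 6 pairs (x axis), with knockout arrays in red on the left and control arrays in dark on the right of each pair, and group means as lines. With the earlier-numbered gene subtracted from the later-numbered one, the knockout arrays lie above the control arrays in all 6 pairs. The largest shift is 1.92, for Lrrtm4 minus Lrrtm1.

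The neurexin genes had lower knockout means at 5 of their 7 probe sets, the brighter ones, and their knockout arrays lay below the controls at those 5. Over all probe sets 14.5% lay below in this way. The 5 belong to 2 genes and are not separate observations. Nrxn2 lies on chromosome 19 from 6418756 to 6533217 and read 12.78 and 13.27 in the knockout pools at 1435907_at, against 13.27, 13.39 and 13.43 in the control pools. Knockout replicate 2 and control replicate 1 were nearly equal, and the low value was that of knockout replicate 1. The log2 fold change was -0.34 ± 0.17 (standard error; limma adjusted p = 0.543), and -0.09 without knockout replicate 1. Without knockout replicate 2 it was -0.58. The dimmer Nrxn2 probe set 1455499_at, made from the same source sequence, again had its lowest value in knockout replicate 1, with 6.19 and 6.82 in the knockout and 6.83, 7.16 and 7.12 in the control. Its log2 fold change of -0.53 (limma adjusted p = 0.467) was -0.22 without knockout replicate 1 and -0.85 without knockout replicate 2.

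Nrxn3, on chromosome 12 from 88722701 to 90334935, had 5 probe sets. The brightest, 1456137_at, held the same value of 11.13 in both knockout pools, against 11.49, 11.27 and 11.59 in the control pools. Exactly equal values, digit for digit as deposited, were found for 867 probe sets in the knockout pair and for 745 to 1172 over all pairs of arrays. The log2 fold change was -0.31 ± 0.13 (standard error; limma adjusted p = 0.476), and -0.40 with an unadjusted p below 0.05 without control replicate 2. At 1433788_at the knockout read 10.88 and 11.04, against 11.51, 11.04 and 11.11 in the control, so the groups all but touched and the difference was -0.26. At 1438193_at it read 9.96 and 10.78, against 11.00, 11.33 and 11.06 in the control. Among neurexin probe sets, limma gave an unadjusted p below 0.05 here alone, with a log2 fold change of -0.76 (limma adjusted p = 0.391). Without knockout replicate 1 the difference was -0.35, and the unadjusted p was no longer below 0.05. The same held without control replicate 1 (-0.82), 2 (-0.66) or 3 (-0.79). The remaining probe sets, at 4.18 to 4.71 in the knockout and 4.03 to 4.62 in the control, were dim and gave 0.04 and 0.11. The probe sets were not placed on the exons here, so long and short neurexin forms were not told apart.

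None of the 7 neuroligin probe sets had an unadjusted p under 0.05 in limma. Nlgn1, on chromosome 3 from 25421808 to 26332866, read 10.35 and 10.72 in the knockout pools, against 10.60, 10.55 and 10.83 in the control pools at 1437160_at. The difference was -0.13 with a 95% interval of -0.54 to 0.28. Nlgn2, on chromosome 11 from 69823123 to 69837784, read 11.9997 and 12.34 in the knockout, against 12.25, 12.50 and 12.25 in the control at 1455143_at, a difference of -0.17 (interval -0.56 to 0.22). Nlgn3, on chromosome X from 101299179 to 101321350, read 11.99 in both knockout pools, against 12.07, 11.95 and 11.99 in the control at 1436135_at. Its difference of -0.01 had the narrowest interval of the 26 probe sets, -0.27 to 0.25. The other Nlgn3 probe sets were less even. At 1456384_at the knockout read 8.58 and 7.96, against 8.02, 7.67 and 7.86 in the control, a difference of 0.42 (limma adjusted p = 0.549). It was 0.11 without knockout replicate 1 and 0.73 without knockout replicate 2. With the replicate block it was 0.43, with an unadjusted limma p below 0.05. At 1453756_at the controls alone spread between 7.71 and 9.38, and the interval ran from -1.26 to 1.22. This probe set gave -0.43 with the replicate block (limma unadjusted p = 0.0497) and 0.40 without control replicate 2, so its sign changed between settings. The other probe sets of Nlgn1 and Nlgn2 gave 0.15 and -0.10.

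Among the neurexin ligands and modulators, Nxph1 differed most. Of 19 listed genes 18 were measured, and at their brightest probe sets 4 were higher and 1 was lower at an unadjusted p under 0.05, with 0 past the adjusted threshold in limma. Over all 18193 genes, 6.90% were higher and 4.90% lower on this basis (11.8% in all, 0.104% past the adjusted threshold). The groups did not overlap for 5 genes above and 2 below the controls of the 18, against 29.7% of all genes. The list had a median log2 fold change of 0.14, against 0.01 over all genes. Nxph1, a neurexophilin, which is a secreted ligand of long neurexins, read 9.98 and 10.21 in the knockout pools, against 8.57, 8.15 and 8.04 in the control pools. Its log2 fold change was 1.84 (limma adjusted p = 0.0755), with both knockout pools over 1 log2 unit above the highest control. Nxph3, of the same family, gave 0.53 and Cbln4, of the cerebellin family of secreted synaptic proteins, gave 0.72 (limma adjusted p = 0.305 and 0.268). Clstn2, a calsyntenin of the postsynaptic membrane, read 10.57 and 10.74 in the knockout, against 11.42, 11.28 and 11.70 in the control, with a log2 fold change of -0.81 (limma adjusted p = 0.197).

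Genes that regulate splicing included Khdrbs3, whose protein acts on alternative exons of neurexin transcripts in mice. It read 8.18 and 8.38 in the knockout pools, against 5.97, 6.19 and 7.03 in the control pools. The groups were well apart although control replicate 3 was higher than the other controls. The log2 fold change was 1.89 ± 0.33 (standard error), at a limma adjusted p of 0.159. Khdrbs3 met the level cut for naming through its knockout mean alone, as its control mean (6.395) lay just below the median of all probe sets (6.406). The neuronal splicing factor genes Nova1 and Nova2 gave 0.81 and -0.46, and Rbfox3 gave 0.15. Of the 10 genes, 2 were higher and 1 lower at an unadjusted p under 0.05 and 0 passed the adjusted threshold in limma, with a median of 0.09, where 6.90% of all genes were higher and 4.90% lower. The inclusion of neurexin exons was not measured here.

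Intracellular partners and scaffolds had a median of -0.08 over 23 of 26 listed genes, with 5 higher and 1 lower at an unadjusted p under 0.05 (6.90% and 4.90% over all genes) and 0 past the adjusted threshold in limma. Dlg1, a scaffold of the membrane-associated guanylate kinases, gave 0.73 and the related Magi1 gave 0.53, while Magi3 gave -0.57. Lin7c, part of a complex with the neurexin-binding protein CASK, gave 0.36. Other synapse organizers had a median of -0.03 over 28 of 30 listed genes, with 4 higher and 2 lower at an unadjusted p under 0.05 (again beside 6.90% and 4.90%) and 0 past the adjusted threshold in limma. The neurotrophin receptor gene Ntrk3 gave 0.90, the pentraxin gene Nptx2 gave 1.00, and the Slitrk family was divided, with Slitrk6 at 0.97 and Slitrk3 at -0.52. Limma adjusted p-values of these 8 genes lay between 0.229 and 0.380.

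**Figure D4:**
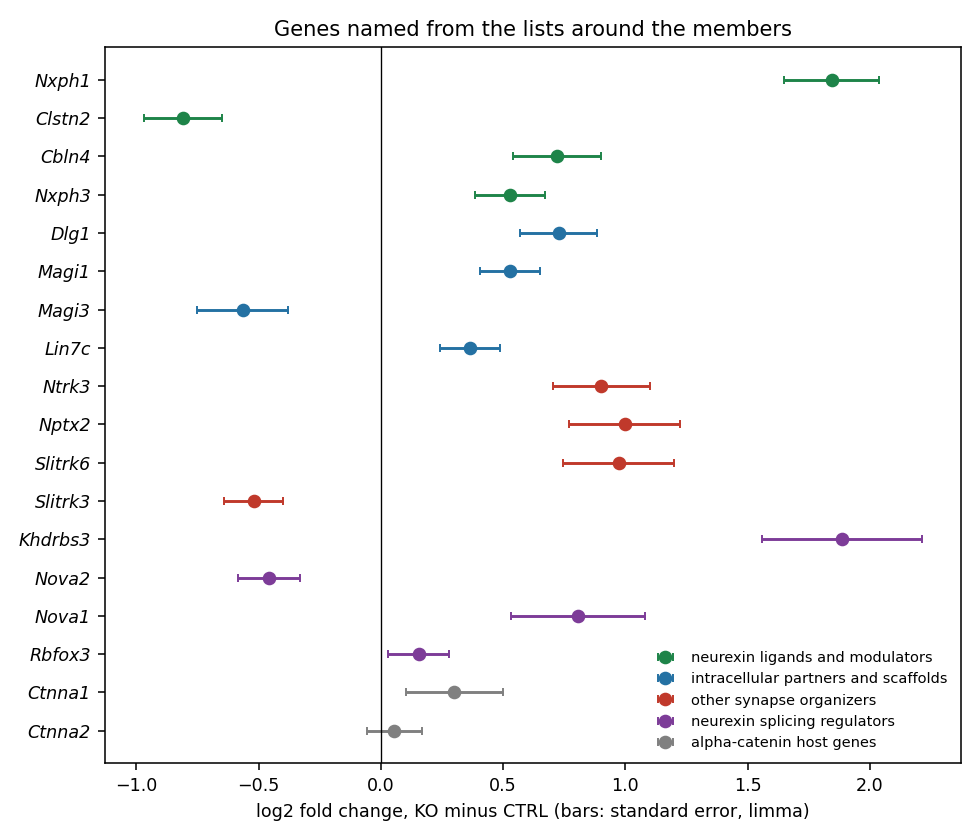
Log2 fold changes (knockout minus control, x axis) with standard errors from limma for the genes named from the 5 lists around the members (rows, coloured by list), 1 probe set a gene, the brightest. Khdrbs3 (1.89) and Nxph1 (1.84) lie farthest to the right and Clstn2 (-0.81) farthest to the left, and none passed the adjusted threshold.

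Of the LRRTM genes, 3 lie inside genes of alpha-catenins, which link cadherins to the cytoskeleton. Lrrtm1 lies within the span of Ctnna2 (chromosome 6, 76881637 to 77979815), Lrrtm2 within Ctnna1 (chromosome 18, 35118902 to 35254776) and Lrrtm3 within Ctnna3 (chromosome 10, 63430098 to 65003667). None of the host genes differed at an unadjusted p under 0.05 in limma. Ctnna2 read 11.38 and 11.53 in the knockout pools, against 11.39, 11.45 and 11.36 in the control pools, a difference of 0.06. Ctnna1 gave 0.30, and Ctnna3 was dim, at 3.97 and 3.89 in the knockout and 3.55 to 3.89 in the control. The differences between host and LRRTM genes were not tested.

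Lrrtm4 was the only member whose brightest probe set spanned more than 1 log2 unit across the 5 arrays, with a span of 1.94. Of 11716 other genes at or above the median level, the 3 whose values lay closest to its own, after subtraction of each gene's control mean, were Flrt1, Sphkap and Sdk1. Their root mean square differences from Lrrtm4 over the 5 arrays were 0.10, 0.11 and 0.12 log2 units. Flrt1, a leucine-rich repeat adhesion gene, read 9.27 and 10.11 in the knockout pools, against 8.00, 8.24 and 8.01 in the control pools. Sphkap, an anchor of protein kinase A, read 11.76 and 12.43 in the knockout, against 10.28, 10.76 and 10.36 in the control. Sdk1, an immunoglobulin superfamily adhesion gene, read 9.41 and 10.11, against 8.25, 8.18 and 7.98. The likeness was the basis of their choice, rests on 5 arrays in 2 groups and is a description.

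Markers of the cell types that the dissected tissue could hold were read in the same arrays. The 10 pan-neuronal markers had a median log2 fold change of 0.08 and summed levels of 127 and 128 in the knockout pools, against 127 to 128 in the control pools. All summed levels here are sums of log2 values over the genes of a list. Their ratios are therefore not fold differences, and the medians give the size of a difference. The 13 relay neuron markers had a median of 0.14, with Slc17a6, the glutamate transporter of relay neurons, at 12.77 and 12.92 in the knockout, against 13.00, 12.90 and 12.96 in the control. Members of this list differed both ways at an unadjusted p under 0.05 in limma. Here 2 were higher, Calb2 (1.13) and Foxp2 (0.48), and 1 was lower, Rora (-0.36). Over all genes, 6.90% were higher and 4.90% lower on this basis. Gbx2 had 9.02 and 11.22 in the knockout, against 6.95, 8.86 and 8.64 in the control. Slc6a4, the serotonin transporter of developing relay neurons, had 7.98 and 10.60 in the knockout, against 10.60, 10.85 and 10.74 in the control, so the low array was knockout replicate 1. These 5 genes were named after their values were seen. Over the 13 genes, levels summed to 143 and 149 in the knockout, against 141 to 145 in the control. Microglia markers were higher in both knockout pools: all 13 measured genes lay above every control, as did 2877 of all 18193 genes, with a median of 1.85 and summed levels of 111 and 109, against 86.8 to 88.1 in the control. GABAergic and prethalamic markers had higher means for all 16 measured genes, as did 9396 of all 18193 genes. Levels of these markers summed to 136 in knockout replicate 1 and to 96.8 in knockout replicate 2, with 91.3 to 99.4 in the control. The Lrrtm3 and Lrrtm4 probe sets were divided between the knockout replicates. Higher in replicate 2 were 1455937_at of Lrrtm4 (9.93 in replicate 1, 10.45 in replicate 2) and 1434761_at (7.48 and 7.67) and 1440112_at (3.80 and 4.24) of Lrrtm3. Replicate 1 was higher at 1434760_at (9.40 and 9.12) and 1434759_at (7.59 and 7.15) of Lrrtm3 and, by little, at 1437214_at of Lrrtm4 (8.21 and 8.13). Markers of the oligodendrocyte lineage had a median of 0.23, with summed levels of 82.4 and 83.5 in the knockout, against 79.5 to 80.9 in the control. The median was 0.17 for cortical and hippocampal markers, with summed levels of 49.4 and 50.8 against 46.2 to 47.2. Meningeal markers had a median of -0.74 and their highest sum, 67.6, in control replicate 3, against 53.8 and 53.1 in the knockout and 57.0 and 54.4 in the other controls. The medians were 0.15 for endothelial, 0.09 for astrocyte, 0.21 for choroid plexus, -0.10 for habenular and -0.45 for erythroid markers. The part of the microglial, GABAergic, oligodendrocyte, cortical and other markers in the differences of the members was not tested.

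**Figure D5:**
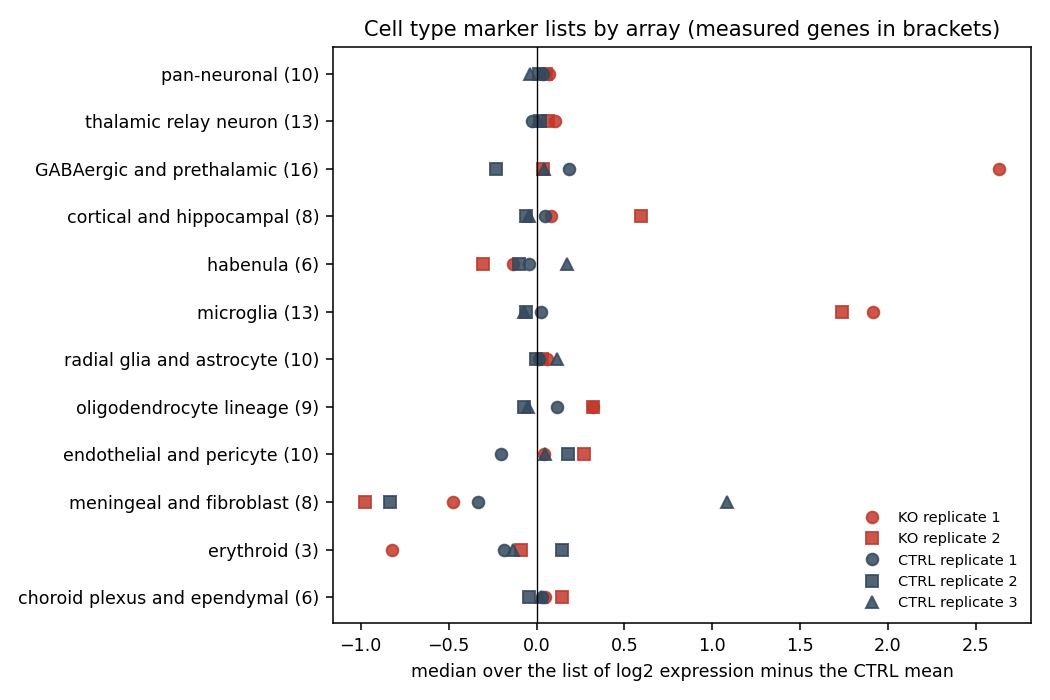
Median over each cell type marker list (rows, number of measured genes in brackets) of log2 expression minus the control mean (x axis), for the knockout arrays in red and the control arrays in dark, with symbols for replicates. Microglia markers lie far to the right in both knockout arrays (1.92 and 1.74), GABAergic and prethalamic markers in knockout replicate 1 alone (2.63), and the medians of pan-neuronal and relay neuron markers near 0 in all 5 arrays.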

How the data were processed

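RNA of microdissected P0 dLGN was measured on Affymetrix arrays, 1 per pool. Per the labels' protocols, tissue came from vibratome sections of 200 µm, and 20 ng of total RNA was amplified and biotin-labelled with Nugen kits. The authors deposited log2 values for each probe set, which per the submitters' processing notes came from RMA. This method corrects background, equalises the arrays' distributions and combines a set's probes. Not given in the sources used here are its version and options. That the scale is log2 follows from the narrow range of values. RMA compresses differences near background and hides a shift shared by most genes.

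Of 45101 probe sets, 64 array controls were left out. The platform annotation gave 34945 probe sets 1 gene, 932 several and 9160 none, and 34741 were found by gene ID in the RefSeq table of GRCm38.p6 with 0 changed symbols. Knockout was compared with control with limma 3.58.1 (lmFit, eBayes; R 4.3.3) in a two-sided test with a genotype term alone, and p-values were adjusted by Benjamini-Hochberg over 45037 probe sets. For lists, each gene was represented by its brightest probe set (highest mean over the 5 arrays). No set test was made. The script was tested on simulated data. Promoter matches and permutation tests were computed in Python 3.11.15 with scipy 1.17.1.

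All probe sets of the members were described. From each list up to 4 genes with the smallest p were named, among those with either group mean at or above the median level. Khdrbs3 (control mean 6.395) and Nptx2 (6.02) met this level, 6.406, through the knockout mean alone. For a member spanning over 1 log2 unit, the 3 nearest patterns were named. The members, lists and marker genes were chosen with earlier results of these data known. Cell type markers in the lists are sets from textbook knowledge. Ntng1 stands in both the organizer and the relay neuron list, and Rbfox3 in both the splicing and the pan-neuronal list.

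Alternatives were a replicate block, further quantile normalization, median centring, a filter on dim probe sets, an intensity trend, a robust prior, array weights, each array left out and the mean of a gene's probe sets.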

Additional observations from a re-analysis of the deposited data

Results flagged for a closer look

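The Gapdh and Actb array controls, left out of the genotype comparison, gave a larger excess of 3′ over 5′ signal in knockout replicate 1 than in any control array. The difference was 2.34 on the log2 scale for Gapdh, against 0.77 to 1.33 in the controls, and 1.91 for Actb, against 0.62 to 1.45 in the controls. Knockout replicate 2 gave 0.96 and 0.97. Without knockout replicate 1, which leaves a single knockout array, Nrxn3 1438193_at gave a log2 fold change of -0.35, against -0.76 with all arrays. Lrrtm3 1440112_at then gave 0.54, against 0.32 with all arrays.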

How the results depend on the processing

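Of 307 log2 fold changes of member probe sets under alternatives, 0 reversed a call, 12 lost an unadjusted p under 0.05 and 11 gained it. Both Lrrtm4 probe sets, 1452624_at of Lrrtm1 and 1434760_at and 1434759_at of Lrrtm3 kept their sign in all 12 alternatives. They kept an unadjusted limma p under 0.05 in each alternative with both knockout arrays. The other calls, at 1455883_a_at and 1437746_at of Lrrtm1 and 1438193_at of Nrxn3, were lost in some, and the cause was not tested. Adjusted calls over all probe sets numbered 33, against 0 with the replicate block, 114 with dim probe sets left out, 100 with an intensity trend, 19 with array weights and 0 to 0 without any 1 array. Member probe sets past the adjusted threshold numbered 0, against 2 with dim probe sets left out and 2 with an intensity trend, all of Lrrtm4, and 0 to 0 without any 1 array. Leaving out dim probe sets reduces the number of tests. In that setting 1437214_at of Lrrtm4 and 1434759_at of Lrrtm3 were kept through their knockout means alone. With any 1 control array left out, 5 to 9 member probe sets had an unadjusted limma p under 0.05 (5 without control replicate 1 and 5 without control replicate 3). Of all probe sets, 8.20% to 8.74% did so. The median log2 fold change over the members lay between -0.08 and 0.03 with any 1 of the arrays left out. With the replicate block 10 members had an unadjusted p under 0.05 (11.0% of all probe sets), at a smallest limma adjusted p of 0.334. Control replicate 3 stands alone in its block, so the block gave the same fold changes as leaving that array out. For fold changes these settings are therefore not separate alternatives. Arrays with the same number share only that number in the labels. Deviations from the group means correlated at 0.15 for the arrays numbered 1 and 0.21 for those numbered 2. With 2 knockout arrays these deviations mirror each other. Knockout 1 with control 2 therefore gave -0.21, and knockout 2 with control 1 gave -0.15. Because of this mirroring, the values cannot tell whether arrays of the same number were paired. With the mean of a gene's probe sets, Lrrtm1 gave -0.61, Lrrtm3 0.64 and Lrrtm4 2.04. The 2 knockout arrays limit the precision, and dim probe sets, such as 1440112_at of Lrrtm3, lie where RMA compresses differences.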
